A study of Mus musculus with 9 samples.

Results

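The mitosis and spindle genes are 57 of the 39017 gene IDs in the table, chosen by symbol for their known part in mitotic entry and exit, the spindle checkpoint, the kinetochore, the spindle and its motors, cytokinesis, and the structure of mitotic chromosomes. Each of the 57 symbols matched 1 ID. RNA was sequenced from CD4+ T cells of lymph nodes of male C57BL/6 mice, 5 WT samples (replicates 1, 3, 4, 5 and 9) and 4 cKO samples (replicates 2, 6, 7 and 8), to ask how Kdm6a affects expression in these cells. Kdm6a is an X-linked histone H3K27 demethylase. All 9 samples carried the floxed/y Kdm6a allele, so the WT samples were floxed animals without Cre (CD4-Cre (-/-)), and the cKO samples carried CD4-Cre (+/-). Cre in such mice is driven by Cd4 regulatory sequence, which is active from the thymus onward, so T cells of the CD8 lineage also carry the deletion. No age, no batch and no stimulation of the cells was given in the labels, nor whether the samples came from separate mice. The authors' name for the count table includes the abbreviation stim, which the labels do not explain, so whether the cells were stimulated before RNA was taken is not known here. The p-values therefore speak only of sample-to-sample spread, part of which may be technical.

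Most mitotic genes are switched off in resting cells and their transcripts rise late in the cell cycle, when the MuvB complex with B-Myb and then FoxM1 binds their promoters at CHR elements beside CCAAT boxes bound by NF-Y. Cyclin-dependent kinase Cdk1 then drives entry into mitosis, kinetochores attach chromosomes to spindle microtubules under the watch of the checkpoint, and the anaphase-promoting complex releases the sister chromatids. In T cells these transcripts are used as a readout of clonal expansion after antigen. In bulk RNA a smaller share of cycling cells and less mitotic RNA per cycling cell cannot be told apart.

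Promoters were available for 47 of the 57 genes (50 promoters, each from 250 bases before to 50 bases after the RefSeq transcript start, build GRCm38.p6). The windows below run from 170 bases before the start to 20 bases after it. Cdk1 lies at chr10:69352893-69353082, minus strand, Bub1 at chr2:127831840-127832029, minus strand, and Cdc25b at chr2:131186778-131186967, plus strand. Racgap1 lies at chr15:99651637-99651826, minus strand, Cdc20 at chr4:118437324-118437513, minus strand, and Ube2c at chr2:164769759-164769948, plus strand. Birc5 (chr11:117849067-117849256, plus strand) and Pttg1 (chr11:43425962-43426151, minus strand) are shown as promoters that hold none of the searched letters. They were picked because Birc5 had the smallest p and Pttg1 was the only gene called higher. Mad2l1, Ncaph, Nuf2, Nusap1 and Plk4 also held no match in their promoters and are not shown. Whether a lack of matches goes with the change in level was not tested. Sequences run 5′ to 3′ along the gene, and capitals mark the motifs searched on either strand, which are spelled out after the sequences.
Cdk1: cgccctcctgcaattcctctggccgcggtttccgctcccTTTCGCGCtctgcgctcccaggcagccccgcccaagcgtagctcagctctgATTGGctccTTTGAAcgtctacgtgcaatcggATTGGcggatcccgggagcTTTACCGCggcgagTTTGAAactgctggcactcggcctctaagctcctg
Bub1: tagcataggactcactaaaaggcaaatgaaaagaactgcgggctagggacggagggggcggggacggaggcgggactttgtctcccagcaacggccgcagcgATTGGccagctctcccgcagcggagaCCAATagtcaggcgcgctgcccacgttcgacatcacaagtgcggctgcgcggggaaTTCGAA
Cdc25b: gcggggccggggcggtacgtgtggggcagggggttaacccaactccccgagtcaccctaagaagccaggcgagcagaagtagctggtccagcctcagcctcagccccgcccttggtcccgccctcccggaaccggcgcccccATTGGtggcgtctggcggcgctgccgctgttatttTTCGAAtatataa
Racgap1: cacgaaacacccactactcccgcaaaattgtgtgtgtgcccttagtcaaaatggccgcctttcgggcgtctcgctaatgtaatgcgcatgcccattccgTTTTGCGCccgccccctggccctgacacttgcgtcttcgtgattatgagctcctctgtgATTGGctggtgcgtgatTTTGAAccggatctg
Cdc20: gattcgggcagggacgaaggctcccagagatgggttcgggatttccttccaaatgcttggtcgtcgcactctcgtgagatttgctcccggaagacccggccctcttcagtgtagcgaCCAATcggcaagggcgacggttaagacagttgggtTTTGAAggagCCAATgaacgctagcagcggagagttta
Ube2c: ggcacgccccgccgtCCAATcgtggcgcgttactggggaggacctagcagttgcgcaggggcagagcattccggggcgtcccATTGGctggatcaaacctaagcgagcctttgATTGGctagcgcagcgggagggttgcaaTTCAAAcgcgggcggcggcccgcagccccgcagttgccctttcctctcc
Birc5: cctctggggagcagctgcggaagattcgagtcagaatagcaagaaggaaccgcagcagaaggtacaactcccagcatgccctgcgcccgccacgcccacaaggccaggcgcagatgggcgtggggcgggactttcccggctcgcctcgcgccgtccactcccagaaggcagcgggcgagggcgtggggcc
Pttg1: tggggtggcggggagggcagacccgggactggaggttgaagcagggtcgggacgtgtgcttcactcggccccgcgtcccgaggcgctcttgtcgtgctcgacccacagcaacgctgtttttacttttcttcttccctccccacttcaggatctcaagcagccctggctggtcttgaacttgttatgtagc

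CCAAT, the NF-Y box, was found on either strand in 37 of the 50 promoters (74.0%), against 37.7% of 12665 promoters of tested genes and 37.4% of all 32851 promoters in the table. At least 2 CCAAT boxes were present in 25 of the 50 promoters, against 14.0% for tested genes and 11.7% for all. TTTGAA, the more common CHR form, was found in 36 promoters (72.0%), against 12.0% and 17.9%. The other CHR form, TTCGAA, was found in 5 of the 50, against 2.06% and 1.56%. Both a CCAAT box and a CHR form were present in 68.0% of the promoters, against 5.77% and 7.52%. Pooled over all promoters of the group, the median match began 71 bases before the start for CCAAT and 15 bases before it for TTTGAA. The quartiles of TTTGAA were wide, from -84.5 to 16.5. The order of the motifs within a promoter was not counted, and it varied. In Cdc20 a CCAAT at position -8 follows the TTTGAA at -18, and in Ect2 a TTTGAA lies upstream of all CCAAT boxes. In Cdk1, CCAAT boxes lie upstream of a TTTGAA whose match begins at position -15, counted from the transcript start, and in Bub1 and Cdc25b a TTCGAA follows the start at positions 15 and 8. TTTNNCGC, an E2F-like element whose matches may overlap those of the other motifs, was found in 10 of the 50, against 8.15% of promoters of tested genes and 5.17% of all. Among promoters of replication genes its share was 46.9%, that of TTTGAA was 12.5% and that of CCAAT was 62.5%. Among promoters of other mitosis genes, described below, CCAAT was found in 54.3% and TTTGAA in 31.9%. Both of these CCAAT shares lay between that of tested genes and that of the mitosis and spindle genes, so the CCAAT box was not particular to this group. Median GC content was 59.0% for the members' promoters and 60.7% for those of tested genes. These are matches of letters in a window and say nothing of binding.

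**Figure D1:**
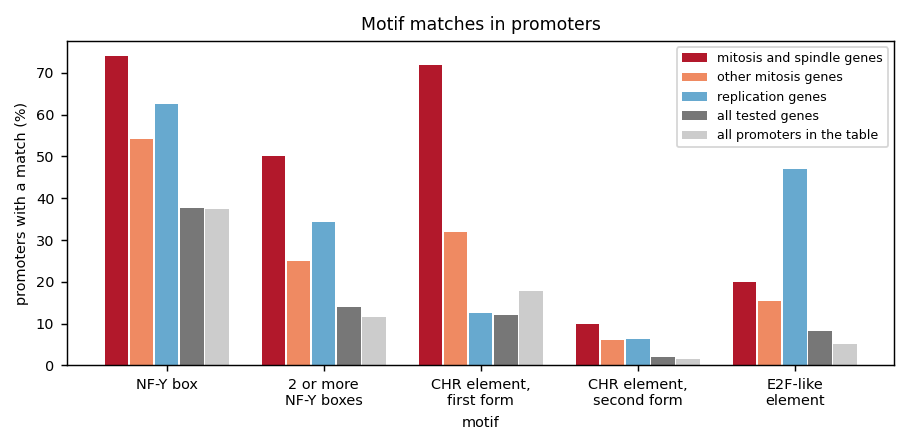
Share of promoters (y axis, percent) with at least 1 match to each motif (x axis), for 5 sets of promoters shown as bars: the mitosis and spindle genes, other mitosis genes, replication genes, all tested genes and all promoters in the table. The bars of the mitosis and spindle genes stand at 74.0% for the NF-Y box (CCAAT) and 72.0% for the first CHR form (TTTGAA), while the E2F-like element is at 46.9% in replication genes and in 10 of the 50 promoters of the mitosis and spindle genes.

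Total counts ran from 20587482 (cKO 7) to 26387488 (WT 9) per sample, and levels are given as CPM, the count of a gene scaled to the size of its library with TMM factors. Kdm6a had a WT level of 62.7 ± 1.59 CPM (SD, n = 5) against 42.7 ± 1.48 CPM for cKO (SD, n = 4), with no overlap (log2 fold change -0.55, edgeR adjusted p = 2.89e-05). The labels do not say which exons the floxed allele removes, and counts over the whole gene include those that remain. Its Y-linked relative Uty rose (log2 fold change 0.24, edgeR adjusted p = 0.00695), and Cd4 itself rose from 873 ± 35.6 to 957 ± 43.6 CPM (log2 fold change 0.13, edgeR adjusted p = 0.0480). T cell markers summed to between 2290 and 2450 CPM in WT and between 2310 and 2440 CPM in cKO, and of these 6 markers edgeR called 3 lower and 2 higher. Markers of B cells, plasma cells and dendritic cells each summed to at most 5.73 CPM, macrophage markers to at most 18.3 and stromal and vessel markers to between 84.5 and 119. Of the 5 stromal and vessel markers only 1 passed the low-count filter. That marker alone had a WT mean of 107.7 CPM and was not called. S100a8, S100a9, Ly6g and Hbb-bs were at 0 in all samples. CD8 markers were between 11.9 and 15.1 CPM in WT and between 15.1 and 19.1 in cKO, and natural killer markers between 0.649 and 1.94 and between 1.87 and 10.2. Outside the T cell markers, edgeR called 1 macrophage marker lower (log2 fold change -1.82), 1 B cell marker lower and 1 CD8 marker higher. The share of counts from mitochondrial genes was 2.38% ± 0.0572 for WT (SD, n = 5) against 2.59% ± 0.138 for cKO (SD, n = 4; exact two-sided permutation p = 0.0159). The parts of these markers and of this share in the results below were not tested.

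Most of the mitosis and spindle genes, 46 of 57, did not pass the test, and 10 were lower in the cKO samples by small amounts. All 57 genes passed the low-count filter, and edgeR's quasi-likelihood test with Benjamini-Hochberg adjustment over 14693 genes (adjusted p below 0.05) called 10 of them lower, 17.5% against 8.82% of all genes tested. It called 1 higher, Pttg1, against 7.0% of all genes, and did not call the other 46. In either direction the 11 calls were 19.3% of the members, against 15.8% of all genes. Among the 8507 genes within the members' range of WT levels the share called lower was 11.8%, and the share called in either direction was 18.4%. At an unadjusted p below 0.05, 30 were lower (52.6%, against 16.3% of all genes) and 1 was higher (against 14.9%). The estimate was below 0 for 55 of the 57 (96.5%, against 49.6%), the exceptions being Pttg1 and Ect2, and the median log2 fold change was -0.13, against 0.0012 for all genes. In 11 members every cKO value lay below every WT value (19.3%, against 8.78%), and in 0 members the reverse held (against 7.08%). Of the 8507 genes in the members' range, 1769 were lower and 1247 higher at an unadjusted p below 0.05. In 1005 of the 8507 every cKO value lay below every WT value, and 52.6% of their estimates were below 0. The falls of the 10 members called lower lay between 8.34% and 17.5%, with a median of 13%.

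For 30 genes the 95% interval of the log2 fold change lay wholly below 0, for 1 above it, and for 26 it held 0. No interval reached a 1.5-fold fall, and 24 reached a 1.2-fold fall. The members are not independent of one another, since their levels moved together from library to library. The number of members called lower depended on which library was left out. It was 23 without WT 1 (10.8% of all genes were then called lower), 5 without WT 3 (6.63%), 2 without WT 4 (6.00%), 7 without WT 5 (7.74%) and 2 without WT 9 (6.30%). It was 3 without cKO 2 (8.12%), 0 without cKO 6 (4.95%), 7 without cKO 7 (6.82%) and 1 without cKO 8 (5.89%). Without cKO 6, 19 members were lower at an unadjusted p below 0.05. The share of all genes at that threshold was not taken for this fit, so the count cannot be set against it. Upper-quartile scaling gave 4 genes lower (7.27%), DESeq2 15 (9.45%) and no count filter 11 (4.86%). Limma-voom gave 10 (8.64%), as did RLE scaling (8.55%), the stricter count filter (9.42%), limma-voom with sample weights (9.84%), the robust fit (8.61%) and GC and length offsets (8.67%). These were not always the same 10 genes. GC and length offsets lost Cdc25b, Plk1, Spc24 and Incenp and gained Kif15, Smc2, Ncapg and Mki67. The robust fit lost Cdc25b and gained Nek2, and sample weights lost Racgap1 and Ncaph and gained Nek2 and Aurkb. With edgeR at an adjusted p below 0.01, 0 members were called lower (3.30% of all genes) and 0 higher (2.06%), and at 0.1, 20 were called lower (12.5%). Pttg1 was the 1 member called higher by DESeq2 (7.84% of all genes) and by limma-voom (6.91%). With 1 surrogate variable in the fit, 11 were called lower (8.56% of all genes), but 47 of the 57 estimates were below 0 and their median was -0.07.

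**Figure D2:**
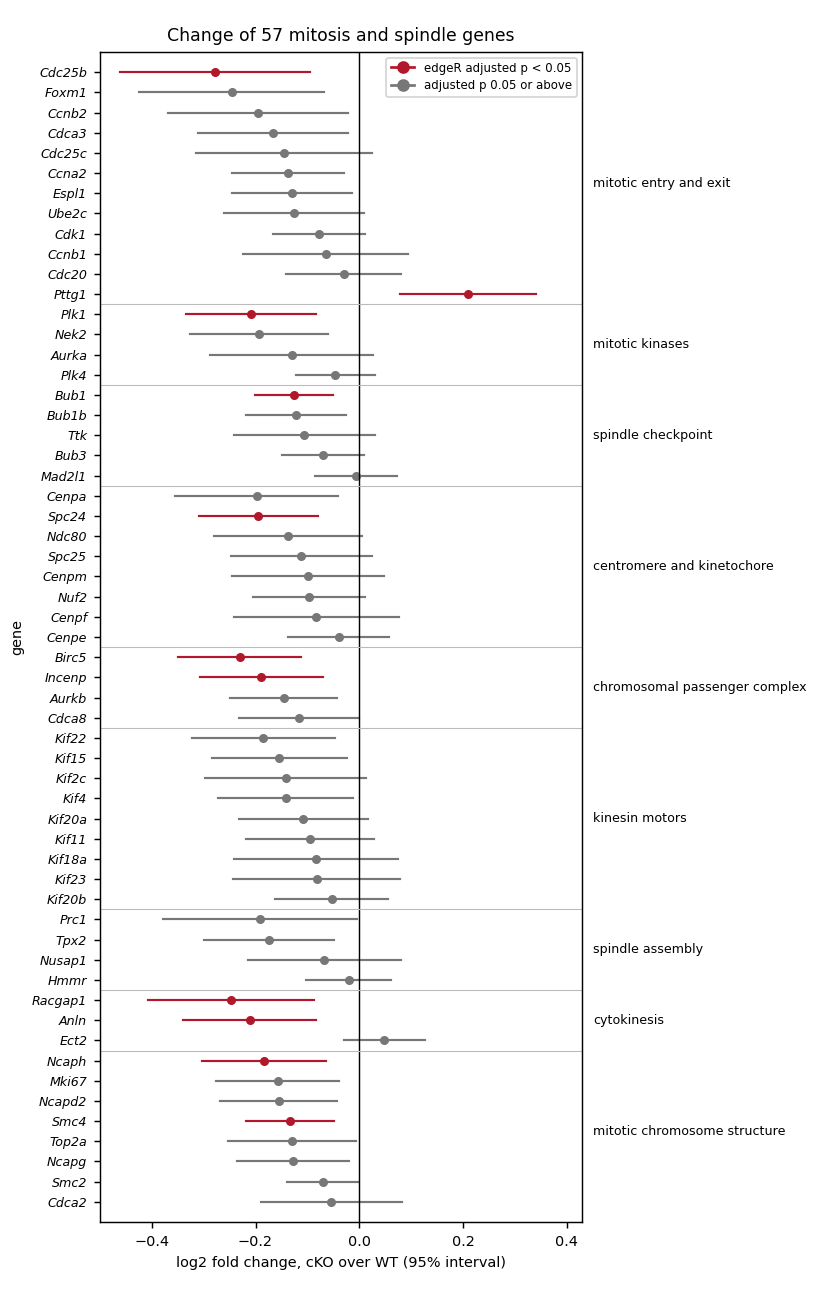
Log2 fold change of cKO over WT (x axis, point) with its 95% interval (line) for each of the 57 genes (y axis), grouped by role; red marks an edgeR adjusted p below 0.05. Of the points, 55 lie left of 0, the lowest bound is -0.46, and Pttg1 is the red point on the right.

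Of 12 genes of mitotic entry and exit, 1 was called lower, 1 higher and 10 were not called (median log2 fold change -0.13). Cdc25b encodes a phosphatase that activates Cdk1 (ENSMUSG00000027330, chromosome 2, 131186949 to 131198497, plus strand, GENCODE M21). Cdc25b was at 115, 130, 150, 129 and 153 CPM in WT 1, 3, 4, 5 and 9 and at 120, 99.5, 115 and 113 CPM in cKO 2, 6, 7 and 8. The groups overlapped, because WT 1 lay among the cKO samples. Cdc25b fell with a log2 fold change of -0.28 (SE 0.08, edgeR adjusted p = 0.0437). Cdc25b kept its call in 8 of 19 alternatives and lost it without WT 3, 4, 5 or 9, without cKO 6, 7 or 8, with upper-quartile scaling, the robust fit, the surrogate variable or GC and length offsets, with an adjusted p up to 0.131.

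Pttg1 encodes securin, which holds separase inactive until anaphase (ENSMUSG00000020415, chromosome 11, 43420250 to 43426251, minus strand). Pttg1 was at 14.6, 15.5, 15.1, 16.5 and 14.9 CPM in WT 1, 3, 4, 5 and 9 and at 18.4, 18.6, 17.5 and 16.4 CPM in cKO 2, 6, 7 and 8. WT 5 and cKO 8 overlapped, and the other cKO samples lay above all WT samples. Pttg1 rose by a log2 fold change of 0.21 (SE 0.06, edgeR adjusted p = 0.0364). It was the member with the lowest WT level in CPM. Pttg1 kept its call in 9 of 19 alternatives and lost it without WT 1, 3, 4 or 9, without cKO 2, 6 or 7, without a count filter, with sample weights or with the surrogate variable, with an adjusted p up to 0.112. Espl1, which encodes the separase that securin holds, was at 161.9 ± 12.4 CPM in WT (SD, n = 5) and 148.1 ± 2.97 in cKO (SD, n = 4; edgeR adjusted p = 0.121).

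Foxm1, the transcription factor of late cell cycle genes, had the largest change among genes that did not pass the test. Foxm1 was at 147, 157, 185, 167 and 195 CPM in WT 1, 3, 4, 5 and 9 and at 138, 133, 157 and 147 CPM in cKO 2, 6, 7 and 8, so that WT 1 and WT 3 lay below cKO 7 (log2 fold change -0.25, SE 0.08, edgeR adjusted p = 0.0624). Ccnb2, a B-type cyclin, was at 124.9 ± 15.3 CPM in WT (SD, n = 5) and 109.2 ± 5.63 in cKO (SD, n = 4), with WT 9 at 148 CPM (log2 fold change -0.19, edgeR adjusted p = 0.117). Cdk1, the partner of the mitotic cyclins, was at 175.7 ± 7.76 and 166.5 ± 5.66 CPM (edgeR adjusted p = 0.218). Cdc20, which activates the anaphase-promoting complex, was nearest to 0 in this role, at 144.2 ± 9.47 and 141.3 ± 5.76 CPM (log2 fold change -0.03, edgeR adjusted p = 0.723). Counts of Ccnb1 are uncertain, since transcripts of the genes Ccnb1-ps and Gm12856 match it at 99.2% and 98.1% of aligned bases and held 1831 and 1080 counts against 9941.

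Of 4 mitotic kinases, 1 was called lower and 3 were not called (median log2 fold change -0.16). Plk1 encodes the kinase that matures centrosomes and helps start mitosis and cytokinesis (ENSMUSG00000030867, chromosome 7, 122159439 to 122169873, plus strand). Plk1 was at 134, 137, 144, 129 and 159 CPM in WT 1, 3, 4, 5 and 9 and at 117, 121, 127 and 123 CPM in cKO 2, 6, 7 and 8. All cKO samples lay below all WT samples, and WT 9 was the highest. Plk1 fell with a log2 fold change of -0.21 (SE 0.06, edgeR adjusted p = 0.0309). Plk1 kept its call in 13 of 19 alternatives and lost it without WT 3 or 4, without cKO 2, 6 or 8, or with GC and length offsets, with an adjusted p up to 0.0791. Nek2, a centrosome kinase, also had groups that did not overlap, at 90.0, 95.3, 103, 89.2 and 109 CPM in WT and 87.0, 81.4, 88.5 and 83.5 CPM in cKO, in the same sample order. Nek2 did not pass the test (log2 fold change -0.19, SE 0.06, edgeR adjusted p = 0.0522). Plk4, the kinase of centriole duplication, was at 121.9 ± 3.31 CPM in WT (SD, n = 5) and 118.0 ± 3.24 in cKO (SD, n = 4).

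Of 5 spindle checkpoint genes, 1 was called lower and 4 were not called (median log2 fold change -0.11). Bub1 encodes a checkpoint kinase at the kinetochore (ENSMUSG00000027379, chromosome 2, 127801122 to 127831865, minus strand). Bub1 was at 120, 118, 119, 125 and 125 CPM in WT 1, 3, 4, 5 and 9 and at 112, 108, 113 and 112 CPM in cKO 2, 6, 7 and 8. The groups did not overlap, and the spread within each was small, with a coefficient of variation of 2.90% in WT and 2.12% in cKO. Bub1 fell with a log2 fold change of -0.13 (SE 0.03, edgeR adjusted p = 0.0299), the smallest change of the genes called lower. Bub1 kept its call in 12 of 19 alternatives and lost it without WT 5 or 9, without cKO 2, 6 or 8, with upper-quartile scaling or without a count filter, with an adjusted p up to 0.0951. Mad2l1, which encodes the checkpoint protein that binds Cdc20, was at 138.3 ± 4.22 CPM in WT (SD, n = 5) and 137.7 ± 4.11 in cKO (SD, n = 4), with a log2 fold change of -0.01.

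Of 8 centromere and kinetochore genes, 1 was called lower and 7 were not called (median log2 fold change -0.11). Spc24 encodes a subunit of the Ndc80 complex, which grips microtubules (ENSMUSG00000074476, chromosome 9, 21755442 to 21760303, minus strand). Spc24 was at 60.9, 66.7, 69.1, 68.1 and 74.4 CPM in WT 1, 3, 4, 5 and 9 and at 60.4, 58.0, 59.9 and 58.9 CPM in cKO 2, 6, 7 and 8. The groups did not overlap, with WT 1 next to cKO 2. Spc24 fell with a log2 fold change of -0.19 (SE 0.05, edgeR adjusted p = 0.0280). Spc24 kept its call in 12 of 19 alternatives and lost it without WT 4, 5 or 9, without cKO 6, 7 or 8, or with GC and length offsets, with an adjusted p up to 0.0822. The other subunits of this complex did not pass the test: Ndc80 had a log2 fold change of -0.14, Spc25 of -0.11 and Nuf2 of -0.10. Cenpa, the centromeric histone H3 variant, was at 133.7 ± 13.9 CPM in WT (SD, n = 5) and 116.6 ± 6.84 in cKO (SD, n = 4), with WT 9 at 154 CPM (log2 fold change -0.20, edgeR adjusted p = 0.0845).

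The chromosomal passenger complex corrects faulty attachments and then guides cytokinesis. All 4 of its genes were lower at an unadjusted p below 0.05 (16.3% of all genes were). Of the 4, 2 were called lower (8.82% of all genes were), and the median log2 fold change was -0.17. With RLE or upper-quartile scaling, DESeq2, limma-voom or the surrogate variable, 3 of the 4 were lower at the unadjusted threshold. Without cKO 6, 0 of the 4 were called. Birc5 encodes survivin, a subunit that brings the complex to centromeres (ENSMUSG00000017716, chromosome 11, 117849251 to 117855743, plus strand). Birc5 was at 149, 164, 178, 164 and 180 CPM in WT 1, 3, 4, 5 and 9 and at 142, 137, 149 and 142 CPM in cKO 2, 6, 7 and 8. The groups did not overlap, WT 1 lying above cKO 7 by less than the rounding of these values. Birc5 fell with a log2 fold change of -0.23 (SE 0.05, edgeR adjusted p = 0.0164). Birc5 kept its call in 18 of 19 alternatives, and without cKO 6 its adjusted p was 0.0549.

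Incenp encodes the scaffold of the same complex (ENSMUSG00000024660, chromosome 19, 9872296 to 9899551, minus strand). Incenp was at 278, 290, 314, 287 and 325 CPM in WT 1, 3, 4, 5 and 9 and at 255, 245, 275 and 273 CPM in cKO 2, 6, 7 and 8. No cKO sample reached the lowest WT sample, WT 1. Incenp fell with a log2 fold change of -0.19 (SE 0.05, edgeR adjusted p = 0.0360). Incenp kept its call in 11 of 19 alternatives and lost it without WT 3, 4 or 9, without cKO 2, 6 or 8, with upper-quartile scaling or with GC and length offsets, with an adjusted p up to 0.112. Aurkb, the kinase of the complex, was at 196.6 ± 12.6 CPM in WT (SD, n = 5) and 177.7 ± 3.52 in cKO (SD, n = 4; log2 fold change -0.15, edgeR adjusted p = 0.0572). Cdca8, which encodes borealin, had groups that did not overlap (137.4 ± 10.6 and 126.8 ± 2.14 CPM, log2 fold change -0.12, edgeR adjusted p = 0.156).

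None of 9 kinesin motor genes passed edgeR's test, DESeq2 or limma-voom. All 9 estimates were below 0 (49.6% of all genes were), with a median log2 fold change of -0.11. By edgeR, 3 had an unadjusted p below 0.05 (16.3% of all genes were lower at that threshold). Kif22, a kinesin that pushes chromosome arms, had the smallest p. Kif22 was at 111, 121, 132, 120 and 139 CPM in WT 1, 3, 4, 5 and 9 and at 103, 107, 111 and 116 CPM in cKO 2, 6, 7 and 8, so WT 1 lay among the cKO samples (log2 fold change -0.19, SE 0.06, edgeR adjusted p = 0.0689). Kif11, the motor that pushes spindle poles apart, was at 423.7 ± 34.6 CPM in WT (SD, n = 5) and 396.9 ± 14.7 in cKO (SD, n = 4). Kif18a, which damps chromosome oscillation, was at 43.04 ± 3.81 and 40.68 ± 3.45 CPM and was among the 3 lowest members per kilobase.

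None of 4 spindle assembly genes passed edgeR's test, with 2 lower at an unadjusted p below 0.05 (16.3% of all genes were). DESeq2 called 1 and limma-voom 0, and the median log2 fold change was -0.12. Tpx2, which encodes an activator of Aurora A on the spindle, did not overlap between the groups, with 320.0 ± 26.0 CPM in WT (SD, n = 5) and 283.7 ± 11.8 in cKO (SD, n = 4; log2 fold change -0.17, edgeR adjusted p = 0.0621). Prc1, which bundles the central spindle, was at 131, 153, 161, 132 and 175 CPM in WT 1, 3, 4, 5 and 9 and at 122, 127, 143 and 134 CPM in cKO 2, 6, 7 and 8. The Prc1 values overlapped widely (log2 fold change -0.19, SE 0.08, edgeR adjusted p = 0.150). Hmmr, a spindle pole protein, was at 141.5 ± 5.33 and 139.5 ± 3.77 CPM (log2 fold change -0.02).

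Of 3 cytokinesis genes, 2 were called lower (8.82% of all genes were) and 1 was not called. Anln encodes anillin, a scaffold of the contractile ring (ENSMUSG00000036777, chromosome 9, 22332012 to 22389188, minus strand). Anln was at 54.6, 57.8, 60.0, 56.9 and 63.3 CPM in WT 1, 3, 4, 5 and 9 and at 51.0, 45.1, 53.8 and 52.3 CPM in cKO 2, 6, 7 and 8. The groups did not overlap, and cKO 6 was the lowest sample. Anln fell with a log2 fold change of -0.21 (SE 0.06, edgeR adjusted p = 0.0318). Anln kept its call in 13 of 19 alternatives and lost it without WT 3, 4 or 9 or without cKO 2, 6 or 8, with an adjusted p up to 0.0867.

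Racgap1 encodes a subunit of centralspindlin, which marks the division plane (ENSMUSG00000023015, chromosome 15, 99620496 to 99651656, minus strand). Racgap1 was at 171, 181, 211, 187 and 219 CPM in WT 1, 3, 4, 5 and 9 and at 156, 154, 173 and 170 CPM in cKO 2, 6, 7 and 8. WT 1 lay between cKO 8 and cKO 7, and the other WT samples were above all cKO samples. Racgap1 fell with a log2 fold change of -0.25 (SE 0.07, edgeR adjusted p = 0.0400). Racgap1 kept its call in 11 of 19 alternatives and lost it without WT 4, 5 or 9, without cKO 2, 6 or 8, with upper-quartile scaling or with sample weights, with an adjusted p up to 0.118. Ect2, the exchange factor that centralspindlin recruits, had an estimate above 0, at 86.9 ± 1.96 CPM in WT (SD, n = 5) and 89.89 ± 3.23 in cKO (SD, n = 4; log2 fold change 0.05, edgeR adjusted p = 0.391).

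Of 8 genes of mitotic chromosome structure, 2 were called lower (8.82% of all genes were) and 6 were not called (median log2 fold change -0.13). At an edgeR unadjusted p below 0.05, 7 were lower (16.3% of all genes were), but the levels of these genes moved together between libraries. Smc4 encodes an ATPase core subunit of condensin, which compacts mitotic chromosomes (ENSMUSG00000034349, chromosome 3, 69004738 to 69034623, plus strand). Smc4 was at 822, 819, 891, 852 and 871 CPM in WT 1, 3, 4, 5 and 9 and at 782, 729, 791 and 800 CPM in cKO 2, 6, 7 and 8. The groups did not overlap. Smc4 fell with a log2 fold change of -0.13 (SE 0.04, edgeR adjusted p = 0.0372). Smc4 kept its call in 11 of 19 alternatives and lost it without WT 4, 5 or 9, without cKO 2, 6, 7 or 8, or with upper-quartile scaling, with an adjusted p up to 0.109.

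Ncaph encodes the kleisin subunit of the same condensin (ENSMUSG00000034906, chromosome 2, 127103809 to 127133954, minus strand). Ncaph was at 142, 148, 164, 147 and 167 CPM in WT 1, 3, 4, 5 and 9 and at 131, 129, 143 and 138 CPM in cKO 2, 6, 7 and 8. WT 1 and cKO 7 overlapped. Ncaph fell with a log2 fold change of -0.18 (SE 0.05, edgeR adjusted p = 0.0427). Ncaph kept its call in 11 of 19 alternatives and lost it without WT 3, 4 or 9, without cKO 2, 6 or 8, with upper-quartile scaling or with sample weights, with an adjusted p up to 0.125. The partner of Smc4, Smc2, had groups that did not overlap but a smaller log2 fold change of -0.07 (391.2 ± 6.82 CPM in WT, SD, n = 5, and 372.6 ± 11 in cKO, SD, n = 4, edgeR adjusted p = 0.152). Mki67, which coats mitotic chromosomes, was at 2160 ± 156 CPM in WT (SD, n = 5) and 1937 ± 101 in cKO (SD, n = 4; log2 fold change -0.16, edgeR adjusted p = 0.0722). Top2a, the enzyme that untangles sister DNA, was at 1573 ± 121 and 1438 ± 72.4 CPM (log2 fold change -0.13, edgeR adjusted p = 0.140).

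**Figure D3:**
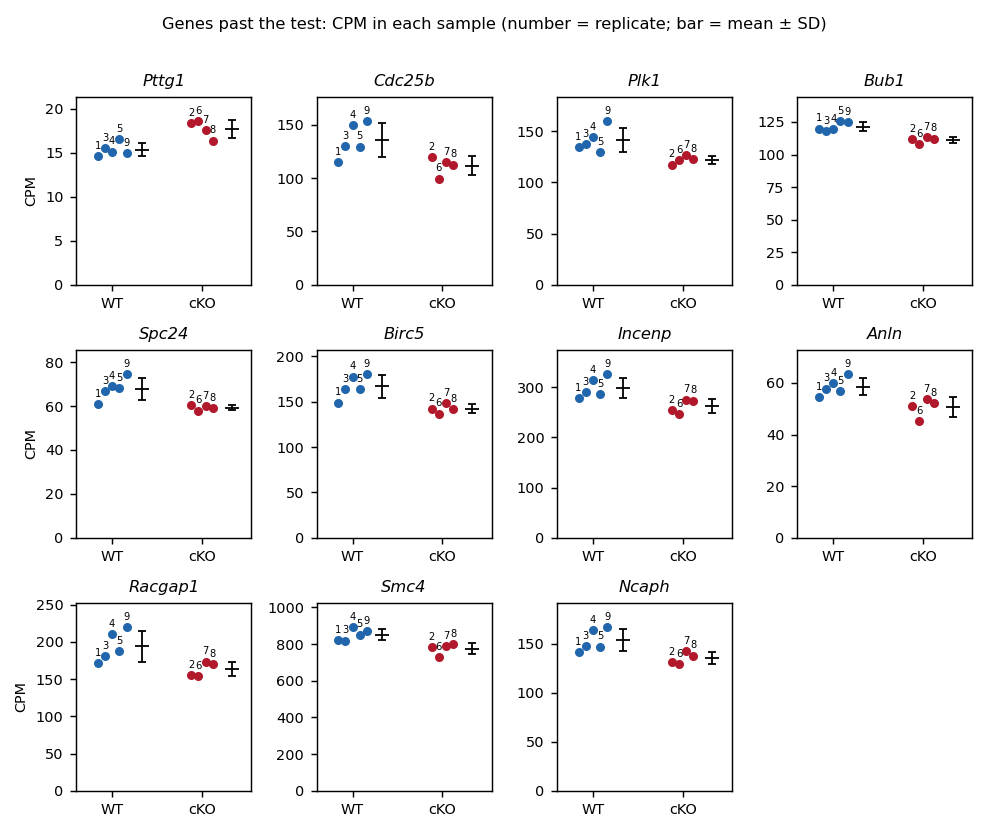
CPM (y axis, from 0) in each WT (blue) and cKO (red) sample for the 11 genes past the test, with the replicate number above each point and the mean ± SD of each group as a bar at its right. The cKO points lie below the WT points in 7 of the genes, and Pttg1 is the gene whose cKO mean is higher, 17.7 against 15.3 CPM.

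Per kilobase of exon, the members differed widely in level. In WT, Mki67 was highest at 215 CPM per kilobase, followed by Top2a at 174 and Smc4 at 163, and the median of the 57 was 26.5. The lowest were Cdc25c, a Cdk1-activating phosphatase, at 3.80, Kif18a at 4.38 and Anln at 6.46 CPM per kilobase. Exons of Ccna2, Kif20a, Kif4, Ncapg and Prc1 overlap those of Exosc9, Cdc23, Pdzd11, Lcorl and Rccd1 on the opposite strand, and Plk1 and Cdc25b share 156 and 92 bases with Gm44985 and Spef1. The strand setting of the counting is unknown here, so reads of these pairs may have been shared.

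The libraries differed among themselves in all these genes at once. For each gene the mean log2 CPM over the 9 samples was subtracted, and the median over the 57 genes was taken per sample. It was -0.04, 0.01, 0.11, 0.001 and 0.21 in WT 1, 3, 4, 5 and 9 and -0.10, -0.12, -0.01 and -0.04 in cKO 2, 6, 7 and 8. WT 9 stood highest and WT 1 lay among the cKO samples, so the groups overlapped on this scale. WT 9 was the highest of the 9 samples in 52 of the 57 genes, and cKO 6 was the lowest in 31 and cKO 2 in 21. A WT sample was the highest in 55 genes and a cKO sample the lowest in 52. Summed over the 57 genes, WT samples held 13349 ± 903 CPM (SD, n = 5) and cKO samples 12180 ± 481 CPM (SD, n = 4).

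**Figure D4:**
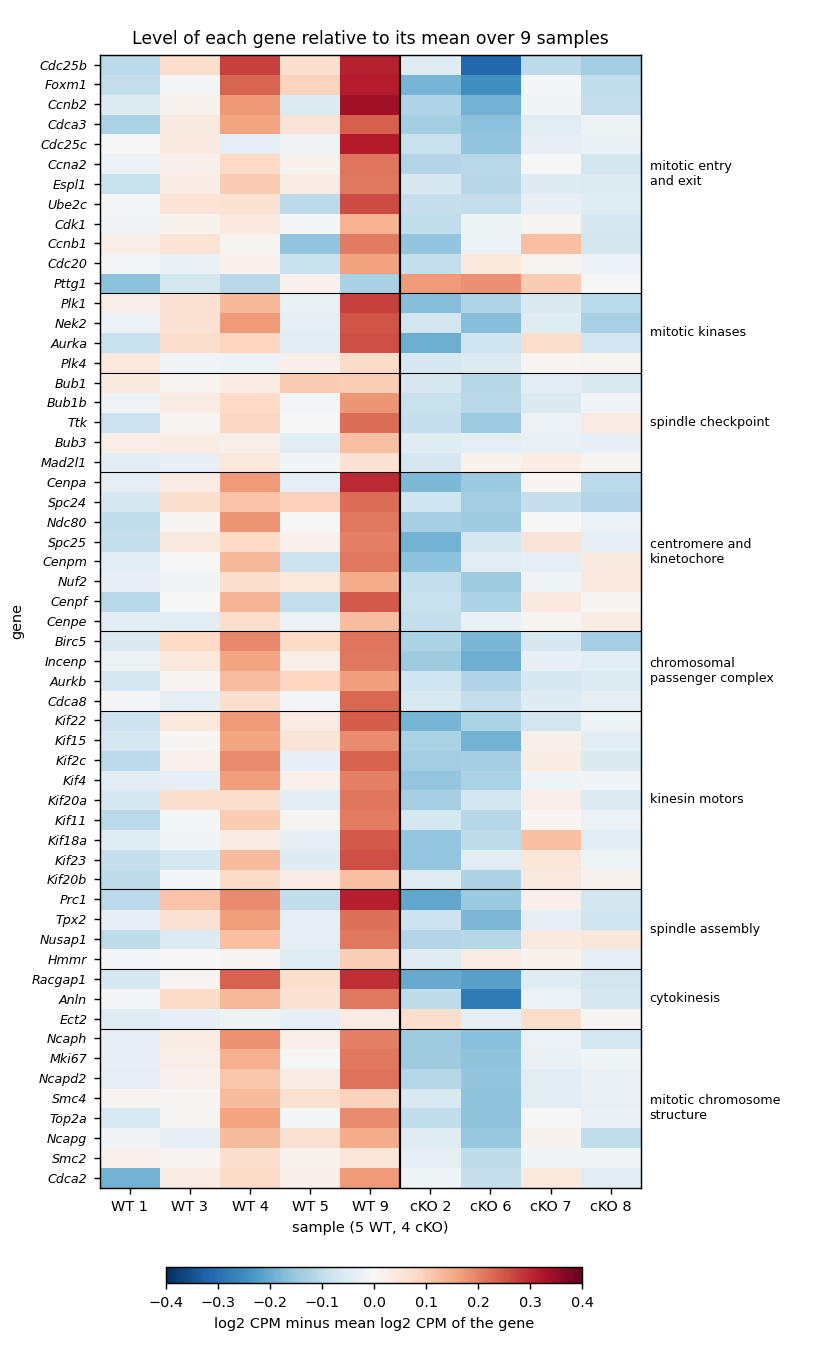
Log2 CPM of each of the 57 genes (y axis, grouped by role) minus its mean over the 9 samples, in colour, for 5 WT and 4 cKO samples (x axis); red is above and blue below the gene's mean. WT 9 is the highest sample in 52 genes, and WT 1 is above the mean in 8 genes.

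Another 124 genes of mitosis, from a list of regulators, kinetochore, cohesin, centrosome and cytokinesis genes, gave 20 lower, 1 higher and 103 not called, with a median log2 fold change of -0.08. The share called in either direction was 16.9%, near the 15.8% of all genes, and 8.82% of all genes were called lower. Among the 10 with the smallest adjusted p, Nedd1, which recruits the microtubule-nucleating ring, had 76.1 ± 2.34 CPM in WT (SD, n = 5) and 65.7 ± 3.27 in cKO (SD, n = 4; log2 fold change -0.21, edgeR adjusted p = 0.00759). Haspin, a kinase that marks histone H3 for the passenger complex, fell with a log2 fold change of -0.22 (edgeR adjusted p = 0.0155), and Fbxo5, an inhibitor of the anaphase-promoting complex, with -0.22 (edgeR adjusted p = 0.0178). Haus4, Dlgap5, Pcnt, Pmf1, Mis18a and Anapc11 also fell, with log2 fold changes between -0.15 and -0.26. Stag2, a cohesin subunit, rose, from 355 ± 8.57 to 394 ± 8.49 CPM (log2 fold change 0.15, edgeR adjusted p = 0.00984). Without cKO 6 the number called lower was 3 (4.95% of all genes were). Without WT 4, cKO 7 and cKO 8 it was 11, 12 and 10 (6.00%, 6.82% and 5.89% of all genes).

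Genes of DNA replication, expressed earlier in the cycle, gave 15 lower, 0 higher and 17 not called of 32 by edgeR. The share called lower was 46.9%, against 8.82% of all genes. At an unadjusted p below 0.05, 24 were lower (16.3% of all genes were) and 0 higher (14.9%). DESeq2 and limma-voom called 0 higher. The median log2 fold change was -0.13, equal to that of the mitosis and spindle genes to 2 decimals. Without cKO 6 and cKO 8 the number lower was 8 and 9 (4.95% and 5.89% of all genes). Cdt1, which loads the replicative helicase, fell from 176 ± 7.89 CPM in WT (SD, n = 5) to 147 ± 7.29 in cKO (SD, n = 4; log2 fold change -0.26, edgeR adjusted p = 0.00431). Gins2 and Mcm5, subunits of that helicase, fell with log2 fold changes of -0.20 and -0.18 (edgeR adjusted p = 0.00493 and 0.00721), and exons of Gins2 overlap those of Gse1 on the opposite strand. The per-sample median of this list lay between -0.001 and 0.11 in WT and between -0.11 and -0.05 in cKO and did not overlap, where that of the mitosis and spindle genes did. The coefficient of variation within WT had a median of 7.68% over the 57 genes, against 5.18% over tested genes in their range of levels. Within cKO these medians were 4.80% and 4.98%. No test of the difference between the lists was made.

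**Figure D5:**
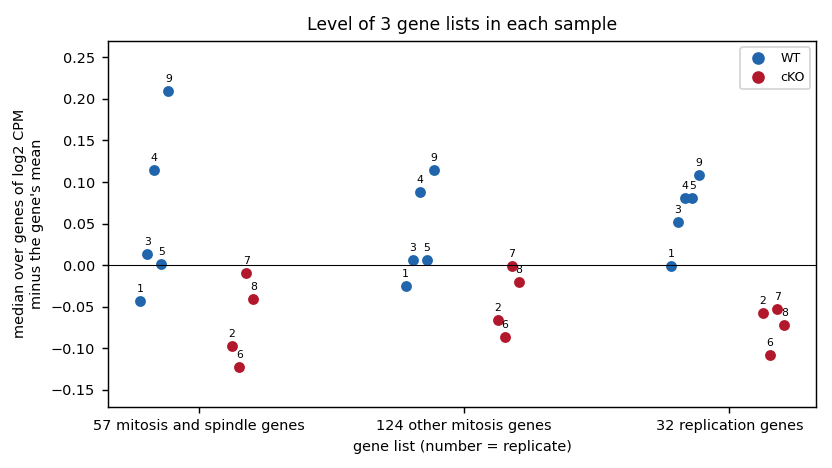
Median over the genes of a list of log2 CPM minus the gene's mean (y axis) for 3 lists (x axis), with 1 point per sample, blue for WT and red for cKO, and the replicate number above it; sideways spacing only separates the points. WT 9 is at 0.21 for the mitosis and spindle genes, WT 1 at -0.04 lies among the cKO points, and the replication genes show no overlap between the groups.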

How the data were processed

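The authors deposited 1 table of unnormalized whole-number counts, with genes as lines and a column for each of the 9 samples. Per the labels' protocols, a Direct-zol kit gave the RNA, and a KAPA stranded kit with mRNA enrichment gave the libraries. Per the submitters' processing notes, bcl2fastq 2.17 was used and the build was mm10. Aligner, counter, strand setting and annotation remain not given in the sources used here. Columns were matched to samples by title, and 0 columns were left over. Symbols were found for 37607 of 39017 IDs, and 13708 IDs had 0 counts in all samples.

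Samples of 1 group differed by a chi-square per gene of 3.36 to 20.6, so none was counted as a duplicate. Genes passing filterByExpr (14693) were tested with edgeR 4.0.16 in R 4.3.3, with TMM scaling, the quasi-likelihood fit on all 9 samples, no covariates, Benjamini-Hochberg adjustment over all genes and a threshold of 0.05, after the script was tested on simulated data. Fold changes are cKO over WT. The alternatives were RLE and upper-quartile scaling, no filter or at least 1 CPM in 4 samples, each sample left out, DESeq2 1.42.0, limma-voom (limma 3.58.1) with and without sample weights, a robust fit, 1 surrogate variable (sva 3.50.0), GC and length offsets, and thresholds of 0.01 and 0.1. Gene positions and exonic lengths came from GENCODE M21 and promoters from RefSeq (GRCm38.p6), which may differ from the annotation used for counting. The genes, roles and lists were chosen with earlier results of these data known. Genes were named by rule: all members past the threshold, the smallest p in each role, the 5 largest changes not past it, the 3 highest and 3 lowest per kilobase, the 10 other mitosis genes with the smallest adjusted p past it, 3 per comparison list, and Kdm6a, Uty, Kdm6b and Cd4 as checks. Members of a role named beside these to complete a complex or to give its smallest changes were chosen after their values were seen.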

Additional observations from a re-analysis of the deposited data

Results flagged for a closer look

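In WT, the Cdc25c level of replicate 9 stood apart at 22.2 CPM, where the other 4 WT samples lay between 17.4 and 18.3 CPM. Kif18a was at 49.7 CPM in the same sample, where the others lay between 40.5 and 42.8 CPM. Both were picked out because the gap to the nearest sample was large against the range of the group (Dixon's 95% criterion). It was applied to 56 groups of values and picked out 2. Chance picks out about 1 in 20, so the number picked out is not above what chance gives. WT 9 was also the highest of the 9 samples in 52 of the 57 mitosis and spindle genes.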

How the results depend on the processing

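The 10 genes called lower became 4 with upper-quartile scaling, 0 at an adjusted p of 0.01 and 20 at 0.1, and between 0 (without cKO 6) and 23 (without WT 1) with 1 sample left out. The 1 gene called higher became 0 with no count filter, with sample weights, with the surrogate variable, at 0.01 and in some leave-one-out fits (range 0 to 1). The median of the 57 stayed below 0 throughout, between -0.15 and -0.09 over leave-one-out fits. Among other mitosis genes, the 20 lower became 1 at 0.01 and 3 to 29 with 1 sample left out; the 1 higher became 3 with upper-quartile scaling, 2 with sample weights, 0 with GC and length offsets, 3 at 0.1 and 1 to 2 with 1 sample left out. The 15 replication genes lower became 6 at 0.01 and 8 to 20 with 1 sample left out. Of the G1 genes, 5 lower became 2 at 0.01 and 3 to 5 with 1 sample left out, and 1 higher became 2 with no count filter, limma-voom, sample weights, the surrogate variable or 0.1, 0 at 0.01 and 1 to 2 with 1 sample left out. Of the promoter regulators, 2 lower became 0 with upper-quartile scaling and at 0.01, 1 with no count filter or the surrogate variable, 4 with GC and length offsets, 6 at 0.1 and 0 to 5 with 1 sample left out. Their 1 higher became 2 with upper-quartile scaling, sample weights, the surrogate variable or 0.1, 0 at 0.01 and 0 to 2 with 1 sample left out. Kdm6b, a related demethylase with a log2 fold change of 0.05, turned to -0.067 without WT 4, -0.06 without WT 9 and -0.17 with the surrogate variable, and was 0.34 without WT 1. Fewer samples were tested in the leave-one-out fits; otherwise the cause was not tested. No paired analysis was possible because the groups share no replicate numbers.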

Other observations

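Genes of G1 control were called in both directions. Of 18 tested genes of 19 for G1 cyclins, kinases and inhibitors, 5 were called lower, 1 higher and 12 were not called. The share called in either direction was 33.3%, against 15.8% of all genes, and 8.82% of all genes were called lower. Ccne1, which encodes cyclin E1, fell from 86.1 ± 2.42 CPM in WT (SD, n = 5) to 73.1 ± 1.80 in cKO (SD, n = 4; log2 fold change -0.24, edgeR adjusted p = 0.00210). Cdkn2d, an inhibitor of the cyclin D kinases, fell from 57.4 ± 3.89 to 39.8 ± 5.09 CPM (log2 fold change -0.53, edgeR adjusted p = 0.00237), and E2f2, an activator of S phase genes, from 189 ± 29.6 to 135 ± 11.4 CPM (log2 fold change -0.48, edgeR adjusted p = 0.0116). The gene called higher was Ccnd2, which encodes cyclin D2, at a mean of 1421 CPM in cKO and 1224 CPM in WT (log2 fold change 0.22, edgeR adjusted p = 0.0153).

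Of 15 regulators that bind the promoters of late cell cycle genes, 2 were called lower, 1 higher and 12 were not called. The share called in either direction was 20%, against 15.8% of all genes, and 8.82% of all genes were called lower. E2f5, a repressor of the E2F family, rose from 7.35 ± 0.497 CPM in WT (SD, n = 5) to 9.51 ± 1.09 in cKO (SD, n = 4; log2 fold change 0.37, edgeR adjusted p = 0.0195). Rbbp4 and Lin54, both subunits of MuvB, fell with log2 fold changes of -0.12 and -0.17 (edgeR adjusted p = 0.0295 and 0.0350). Lin54 is the subunit that binds CHR elements, and exons of Rbbp4 overlap 796 bases of Gm26722 on the opposite strand.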
